A study of Sporobolus alterniflorus and Setaria viridis with 12 samples.

Results

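Leaf RNA of salt-treated Setaria viridis was set against leaf RNA of salt-treated Spartina alterniflora, gene by gene, to find which genes differed in level between the 2 grasses under salt and which of those differences were not seen without salt. Members were genes whose average over the 6 salt libraries was 1 FPKM or higher, which held for 12445 of the 15218 gene IDs in the deposited table. FPKM counts the fragments assigned to a gene, scaled by the length of the gene and the size of the library. Differences are S. viridis minus S. alterniflora on the scale of log2(FPKM + 1), on which 1 unit is a doubling for well-expressed genes and which understates the change of genes near 0. A gene was called when its Benjamini-Hochberg adjusted p in limma was under 0.05.

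S. viridis (the labels' SV) is a fast-growing C4 model grass, and S. alterniflora (the labels' SA, listed under the name Sporobolus alterniflorus) is a cordgrass of salt marshes. Both were grown at 16 hours of light and 8 hours of dark, and mature leaves were taken from 3 libraries each of SV_control, SV_salt, SA_control and SA_salt. The cordgrass plants were 2 months old when moved to hydroponic culture for salt, and the labels give no such age for S. viridis, no ecotype or line for either species and no duration of salt. Nothing in the labels ties the 3 libraries of a group to different plants, and the p-values below therefore reflect only library-to-library spread, possibly technical. In whole leaves, fewer cells of a type and less RNA per cell cannot be told apart.

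Doses were given in contradictory ways. By the treatment protocol, S. viridis received NaCl at 250 mM and S. alterniflora at 50 mM, whereas the salt columns of the table carry 50 in the S. viridis names and 250 in the S. alterniflora names. By either source the salt dose differed between the species, so species and dose cannot be told apart below. If the species prefixes rather than the numbers were exchanged in the column names, each value given here for one grass would be that of the other. Libraries are called A, B and C after their column names.

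Grasses meet salt by keeping sodium out of the shoot, by storing it in vacuoles, and by making compatible solutes such as proline and glycine betaine. Cordgrasses also secrete salt from the leaf surface through salt glands. The files pair none of the IDs with a gene name or product, so no function, pathway or leaf marker could be attached to the genes below, the tissue label could not be checked against markers, and no sequence is shown. IDs are named for only a few genes per comparison.

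S. alterniflora was listed under Setaria gene IDs, and the sources used here do not give how its reads were assigned to them. Its columns were also written differently. In the salt groups all S. viridis values carried 2 decimals, against 80.7% of the S. alterniflora values, which dropped final zeros. Whether the tables of the species were normalized apart is not stated, so a level in one species set beside a level in the other rests on that unknown step.

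The salt libraries of the 2 grasses differed in makeup. Total FPKM was 510410, 522713 and 542488 in S. viridis salt libraries A, B and C, and 741399, 710230 and 711049 in those of S. alterniflora. The 10 most abundant genes took 8.511% ± 1.09 of the summed FPKM in S. viridis and 29.45% ± 2.11 in S. alterniflora (SD, n = 3). The exact permutation test, two-sided, gave p = 0.1, its minimum with 3 and 3 libraries. In each salt library of S. alterniflora the single most abundant gene held 4.44% to 5.39% of the total, against at most 1.4% in S. viridis. Genes at 1 FPKM or more numbered 10533, 10472 and 11092 in S. viridis and 11180, 10825 and 11276 in S. alterniflora, which overlap (p = 0.2, exact permutation test). Read totals cannot be had from FPKM, and depth is therefore unknown.

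Agreement between libraries was high within a species and low across species. Spearman correlations over all genes were 0.949 to 0.956 among the S. viridis salt libraries and 0.854 to 0.928 among those of S. alterniflora, but 0.438 to 0.488 over the 9 pairs across species. Across the species the control libraries gave 0.496 to 0.516. Genes are not independent replicates and each library enters several pairs, so these values carry no test. The median SD of a gene between libraries was 0.391 (log2) in S. viridis under salt and 0.408 in S. alterniflora under salt, against 0.139 and 0.34 in their controls.

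Most genes differed between the grasses under salt. Of the 12445 genes, 7685 were called (61.8%; limma, adjusted p under 0.05), of which 3968 were higher in S. viridis (31.9%) and 3717 were lower (29.9%). A 2-fold difference or more was seen in 3801 of the higher genes and in 3529 of the lower ones. The direction of the small excess depended on scaling, on the filter and on 1 library. Upper quartile scaling, which moved the median difference over all genes from 0.02 to -0.26, gave 3469 higher and 4415 lower. Median centring gave 3507 higher and 4453 lower, and leaving out S. viridis salt library C gave 3547 higher and 3774 lower. With no filter on low values 4031 were higher and 4297 lower. Without regard to any model, all 3 libraries of one species lay above all 3 of the other for 8440 genes (67.8%), of which 7560 were called.

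Large differences leaned to one side. A difference of 8-fold or more was called for 1473 genes higher in S. viridis and for 719 lower, and one of 64-fold or more for 194 and 50. More genes were higher than lower by 8-fold or more in every fit made, including upper quartile scaling (1261 and 881), median centring (1266 and 926), a pseudocount of 0.1 (2208 and 1672) and a filter at 1 FPKM in each species (724 and 341). Without salt the same lean was seen, with 1342 genes higher and 521 lower by 8-fold or more. The median absolute difference was 1.45 (log2) under salt and 1.21 without it, with median standard errors of 0.38 and 0.22, and how much of the wider spread under salt is error was not tested.

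**Figure D1:**
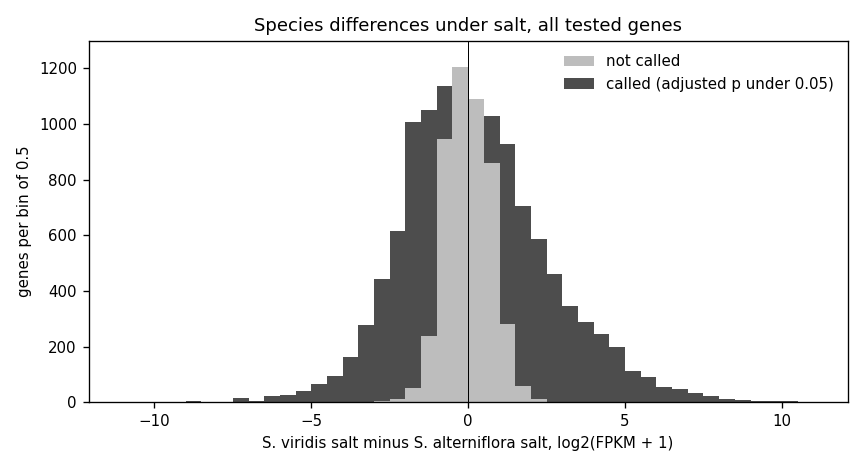
Distribution of the S. viridis minus S. alterniflora difference under salt over the 12445 tested genes, in bins of 0.5 on the log2(FPKM + 1) scale; dark bars are called genes and light bars are not. The median is at 0.02, and the right tail is the longer: 1473 called genes lie at 8-fold or more above 0 and 719 as far below.

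Higher calls outnumbered lower ones among abundant genes and not among weak ones. Among genes with a mean of 1 to 10 FPKM over the salt libraries, 58.1% were called, 1634 higher in S. viridis and 2054 lower. At 10 to 100 FPKM 64% were called, with 1959 higher and 1426 lower, and at 100 FPKM and above 75.9% were called, with 375 higher and 237 lower. These directions are for FPKM without further scaling, and within the classes they were not tested under the other scalings. The median absolute difference in these classes was 1.3, 1.58 and 2.45 (log2). At the low end, 1710 members were under 1 FPKM in S. viridis under salt and 1614 in S. alterniflora, and such genes entered only through the species in which they were higher. With a filter at 1 FPKM in each species, 36.2% were called in the class of 1 to 10 FPKM and 57.5% in that of 10 to 100 FPKM. Of the 9121 members at 1 FPKM or more in both species, 4772 were called (52.3%), 2514 higher and 2258 lower. At the threshold, the lowest mean of a member was 1 FPKM and the highest mean of a gene left out was 0.9983 FPKM, with 179 members under 1.1 FPKM and 165 genes left out at 0.9 FPKM or more.

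**Figure D2:**
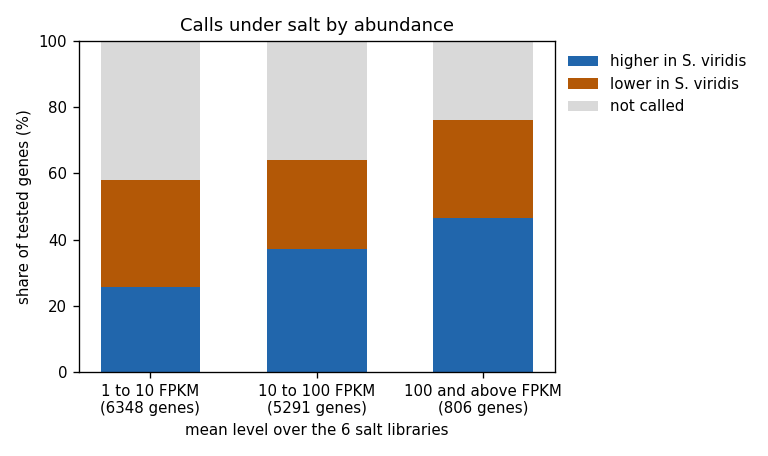
Share of tested genes (in %) called higher in S. viridis, called lower or not called under salt, in 3 classes of mean FPKM over the 6 salt libraries. The called share is 58.1%, 64% and 75.9% from the lowest class to the highest. On FPKM without further scaling the higher calls outnumber the lower ones in the upper 2 classes. With a filter at 1 FPKM in each species the lowest class is at 36.2%.

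At the far ends were genes at high levels in one grass and near 0 in the other. Sevir.8G179700 was at 2195, 772 and 1617 FPKM in S. viridis salt libraries A, B and C and was listed at 0 in all 3 of S. alterniflora (limma, adjusted p = 4.94e-06). The S. viridis controls held 60.62, 16.82 and 83.05 FPKM of it and the S. alterniflora controls 1.46, 0.93 and 0 FPKM. A gap was thus there without salt but was smaller, at 4.75 ± 0.63 against 10.45 ± 0.41 under salt (log2 ± SE). Its change with salt of 5.7 ± 0.78 passed (limma, adjusted p = 0.000518). Sevir.9G447600 reached 7141, 4180 and 5186 FPKM in S. viridis against 2.14, 8.27 and 2.69 FPKM in S. alterniflora, a difference of 10.14 ± 0.47 (log2 ± SE, adjusted p = 6.84e-06). Without salt both grasses were low, at 3.72, 0.2 and 0.42 FPKM and at 0, 0.23 and 0 FPKM, and the control difference of 0.9 did not pass (95% interval -0.3 to 2.11, adjusted p = 0.149).

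Sevir.5G271000 showed the reverse, at 0.28, 0 and 0 FPKM in S. viridis under salt and at 922, 1160 and 982 FPKM in S. alterniflora, a difference of -9.87 ± 0.28 (adjusted p = 3.38e-06). That gap was as wide in the controls, at -9.53 ± 0.24, and its change with salt of -0.34 ± 0.36 did not pass (adjusted p = 0.529). Sevir.5G417100 was at 0.02, 0.02 and 0 FPKM in S. viridis and at 254, 539 and 1051 FPKM in S. alterniflora under salt, with a difference of -9.02 ± 0.5 (adjusted p = 1.06e-05). The cordgrass controls held 13.27, 40.34 and 4 FPKM of it, below all of its salt libraries, and the S. viridis controls were listed at 0. Its control difference was -3.84 ± 0.7, and its change with salt of -5.18 ± 0.9 passed (limma, adjusted p = 0.00226). For these genes the rule of choice required the salt libraries of the 2 species not to overlap. They were also picked for the size of the difference tested, so their p-values are no separate evidence. Sevir.8G179700, Sevir.5G271000 and Sevir.5G417100 were members only through the species in which they were high. A filter at 1 FPKM in each species left these out.

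Some genes were listed at 0 in every salt library of one species and were expressed in the other. Under salt, 304 genes had only zeros in S. viridis while each S. alterniflora library held at least 1 FPKM, and 237 genes showed the opposite. The first group was at low levels in S. alterniflora, with a median of 5.24 FPKM, 90 genes at 10 FPKM or more and 8 at 100 or more. The second group was at a median of 12.4 FPKM in S. viridis, with 134 genes at 10 FPKM or more and 25 at 100 or more. Of the first group 192 showed the same pattern in the controls, against 22 of the second. In the second group 210 genes had a value above 0 in at least 1 S. alterniflora control, though only 2 reached 1 FPKM in all 3. Conversely 18 of the 237 were below 1 FPKM in every S. viridis control, and 12 of the 304 were below 1 FPKM in every S. alterniflora control. Without S. alterniflora salt library A, B or C the count of 237 was 357, 375 and 369. Leaving out a library removes a condition of the rule, so such a count can only stay or rise.

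The most abundant transcripts were largely different ones. Of the 100 most abundant genes of each grass under salt, 30 were shared, against 55 of 100 in the controls. Of the 10 most abundant, 1 was shared under salt and 4 were shared in the controls. The top 100 of S. alterniflora under salt held 83 of its own top 100 without salt, whereas that of S. viridis held 33 of its own. The S. viridis top 100 had a median level of 1100 FPKM there and 156 FPKM in S. alterniflora, and 66 of them were called higher in S. viridis. For the S. alterniflora top 100 the medians were 1560 FPKM there and 319 FPKM in S. viridis, and 80 were called lower in S. viridis. Of all tested genes 31.9% were called higher in S. viridis and 29.9% lower. These lists were picked on the levels they describe, so the calls in them are no separate evidence.

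Close levels could be shown for few genes. The 95% interval of the difference under salt lay within 2-fold in either direction for 717 genes (5.76%), and 4043 genes were neither called nor bounded in this way. The median width of the interval was 1.75 (log2), so most genes that missed the threshold are not shown to be alike. Among the 2530 genes within 2-fold in the controls, 360 were also within 2-fold under salt. The count of 717 depended on the fit, at 391 with the column letter as a replicate block, 336 and 204 without S. alterniflora salt library A and C, 444, 373 and 468 without S. viridis salt library A, B and C, and 1265 when all 12 libraries shared 1 estimate of the spread.

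The controls served to sort the salt differences. Without salt 8701 of the same genes were called (69.9%), 4675 higher in S. viridis (37.6%) and 4026 lower (32.4%). Of the 7685 genes called under salt, 5809 (75.6%) were called in the same direction without salt, which is 66.8% of the control calls. Another 305 were called in opposite directions, and 1571 were called only under salt, 708 higher and 863 lower. The larger the difference, the more often a difference in the same direction, of any size, was called without salt. Of the genes higher by 8-fold or more under salt 87.8% were called higher in the controls, and of those lower by 8-fold or more 90.3% were called lower. The control gap was itself 8-fold or more, and called, for fewer: 894 of the 1473 higher and 347 of the 719 lower.

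A call in one condition and not in the other does not show a change, so the change itself was tested over all 12 libraries. The species difference changed with salt for 2966 genes (23.8%), upward for 1345 (10.8%) and downward for 1621 (13%). Of the 1571 genes called only under salt, 850 passed this test. Of the 5809 called alike in both conditions 1044 passed, 706 with a wider gap under salt and 338 with a narrower one. The count of 2966 fell to 1883 without S. viridis control library B and to 1956 without C.

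**Figure D3:**
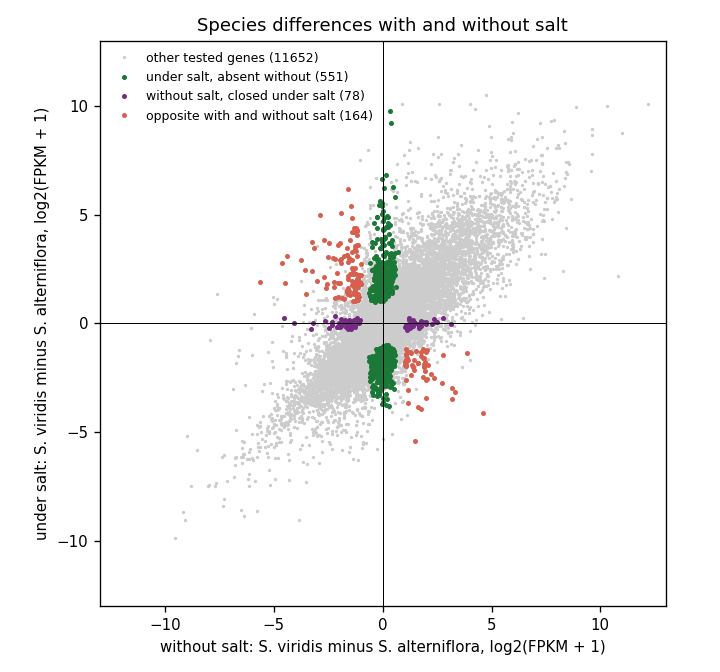
Species difference (S. viridis minus S. alterniflora, log2(FPKM + 1)) of each tested gene under salt on the vertical axis and without salt on the horizontal axis. Of the 7685 genes called under salt, 5809 were called in the same direction without it. Coloured points are the 551 differences seen under salt and absent without it, the 78 control differences closed under salt and the 164 that turned. Their places follow from the rule, and absent means bounded within 2-fold in the controls.

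Differences present under salt and absent without it numbered 551 (4.43% of tested genes), 262 higher and 289 lower in S. viridis. For these the gap under salt was called at 2-fold or more, the 95% interval of the control difference lay within 2-fold, and the change passed its own test. Absent thus means bounded within 2-fold: 62 of the 551 still had a control difference that was called (limma, adjusted p under 0.05). In 147 genes both grasses averaged under 1 FPKM in their controls, where a narrow interval follows from the added 1 FPKM. The other 404 were expressed without salt in at least 1 grass. With the interval held to 1.5-fold 139 genes were left, with a pseudocount of 0.1 263, and with 1 fit over all 12 libraries 327. Without S. viridis control library A, B or C the count was 283, 256 and 278, and 113 of the 551 met every criterion also under both scalings, the smaller pseudocount and the 12-library fit.

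Of the 147 low genes 111 were higher in S. viridis under salt. Their median level was 16.7, 9.23 and 7.38 FPKM in S. viridis salt libraries A, B and C, and 0.27, 0.18 and 0.15 FPKM in its controls. In S. alterniflora it was 0.21, 0.82 and 0.31 FPKM under salt and 0.12, 0.12 and 0.15 FPKM in controls. The level that stood apart was that of S. viridis under salt, in all 3 libraries and least in library C. The remaining 36 low genes were the mirror image at lower levels, with medians of 2.72, 3.88 and 4.24 FPKM in S. alterniflora under salt and of 0.215 FPKM or less in every other library. For the 111 and the 36 alike, the rule of low controls and a gap under salt largely fixes which group stands apart.

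Among the 404 expressed genes the larger part, 253, were lower in S. viridis under salt. In these the S. viridis salt libraries had medians of 2.82, 2.97 and 5.84 FPKM, where its controls were at 13.2, 13.1 and 13.7 FPKM. S. alterniflora was at 16.2, 16.4 and 15.7 FPKM under salt and at 13.6, 13.9 and 13.3 FPKM in controls. The level moved further from its controls in S. viridis than in S. alterniflora for 224 of these 253 genes, against 67.8% of all tested genes. The other 151 were higher in S. viridis under salt, with medians of 35.5, 30.3 and 24.2 FPKM against 5.81 to 6.69 FPKM in its controls and 6.12 to 7.16 FPKM across the 6 cordgrass libraries.

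Salt library C of S. viridis stood nearer to its controls than A and B. Over all tested genes it was the nearest of the 3 salt libraries to the S. viridis control mean for 53.9%, and for 87.4% of the 253 expressed genes that were lower under salt. Without it 727 differences were absent without salt, and without S. viridis salt library A or B 392 and 427. The part of library C in these results beyond those counts was not tested.

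**Figure D4:**
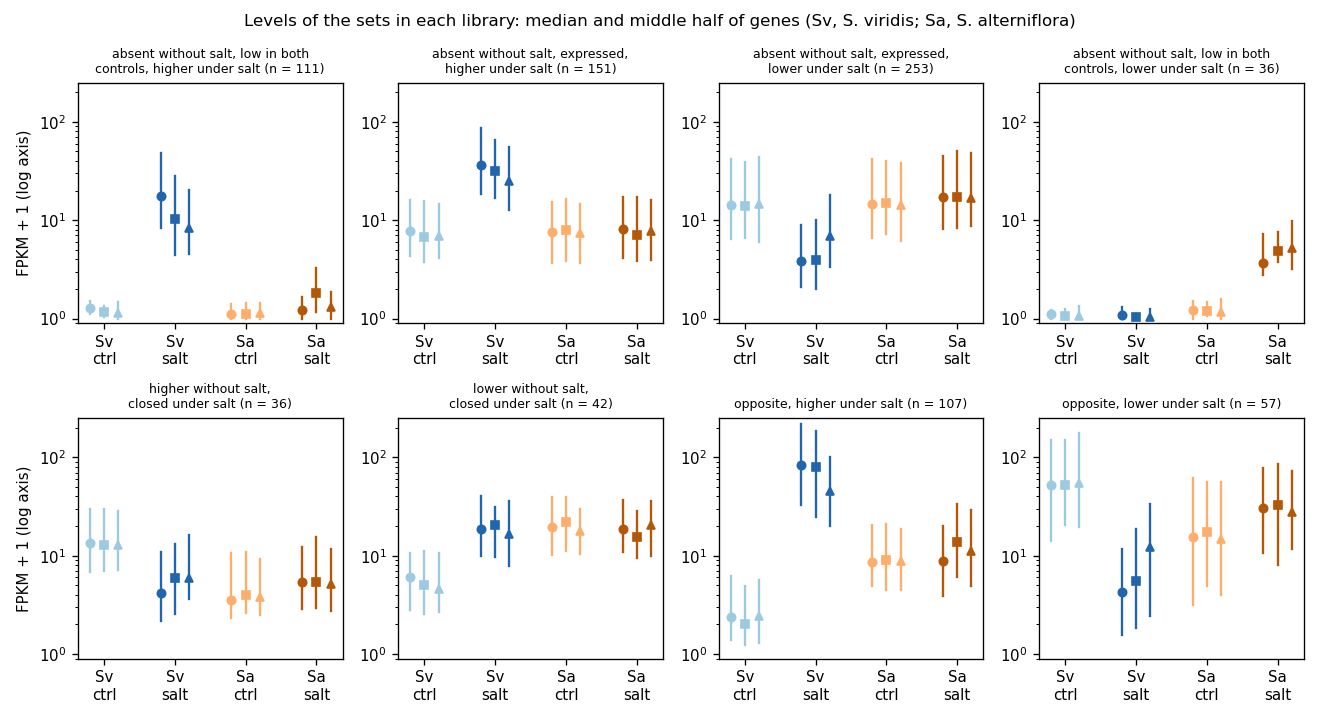
Level of each set of genes in each of the 12 libraries, as FPKM + 1 on a log axis: points are the median over the genes of the set (circle A, square B, triangle C) and lines span their quartiles. In the panel of 253 expressed genes lower under salt, the S. viridis salt libraries are at medians of 2.82 to 5.84 FPKM, and all other libraries are at 13.1 to 16.4 FPKM.

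Sevir.3G165600 had the largest gap absent without salt. It was at 2504, 661 and 1340 FPKM in S. viridis under salt and at 0, 1.49 and 0.33 FPKM in S. alterniflora, a difference of 9.77 ± 0.55 (adjusted p = 1.13e-05). The controls were at 0.64, 0.18 and 0 FPKM in S. viridis and were listed at 0 in S. alterniflora. Sevir.2G279500 followed, with 1194, 1591 and 337 FPKM against 0, 0 and 2.06 FPKM, a difference of 9.22 ± 0.68 (adjusted p = 2.93e-05), and S. viridis controls of 0.9, 0.05 and 0.11 FPKM. Both genes were thus near 0 without salt in both grasses, and with a pseudocount of 0.1 neither had a control interval within 2-fold.

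On the lower side Sevir.9G064400 was at 2.41, 10.5 and 17.56 FPKM in S. viridis under salt and at 159, 65.4 and 187 FPKM in S. alterniflora, a difference of -3.81 ± 0.67 (adjusted p = 0.00177). Without salt the grasses overlapped, at 135, 166 and 141 FPKM and at 144, 80.7 and 153 FPKM, with a difference of 0.27 and a 95% interval of -0.38 to 0.92. Sevir.3G082700 was at 4.8, 3.85 and 18.42 FPKM against 113, 70.5 and 158 FPKM under salt, a difference of -3.74 ± 0.57 (adjusted p = 0.000885). Its controls lay close together at 98.03, 88.23 and 103.8 FPKM in S. viridis and 79.66, 80.94 and 98.45 FPKM in S. alterniflora, a difference of 0.16 (95% interval -0.21 to 0.54). In both genes the S. viridis salt libraries lay below all others. The cordgrass groups overlapped, though for Sevir.3G082700 its salt libraries were more scattered (SD 43.77 against 10.5 FPKM) and A and C lay above every control. Sevir.9G064400 left the set in 7 of 23 alternative settings, Sevir.2G279500 in 9, Sevir.3G165600 in 4 and Sevir.3G082700 in 1.

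The converse, a control difference closed under salt, was found for 78 genes (0.627%), 36 of them higher and 42 lower in S. viridis without salt. Here the interval under salt had to lie within 2-fold. In the 42 genes the S. viridis median was 5.08, 3.99 and 3.54 FPKM in controls and 17.5, 19.5 and 15.7 FPKM under salt. The 6 cordgrass libraries were at medians of 14.6 to 20.9 FPKM, so the levels met at the cordgrass level. In the 36 genes the S. viridis medians were 12.3, 11.7 and 11.9 FPKM in controls and 3.22, 4.86 and 4.98 FPKM under salt. The S. alterniflora medians were 2.58, 3.01 and 2.79 FPKM in controls and 4.16 to 4.4 FPKM under salt, so they too were higher under salt. The size of the closed set varied with the libraries used. It held 21 genes without S. alterniflora salt library C and 40 without A. It held 46 and 44 without S. viridis salt library A and B, 47 without S. viridis control library C, and 154 in 1 fit over all 12 libraries. Of the 78 genes, 30 remained under upper quartile scaling and 28 under median centring, although the counts were 86 and 87, and 15 met every criterion also under both scalings, the smaller pseudocount and the 12-library fit.

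Sevir.5G469100 went from 2.65, 1.63 and 3.31 FPKM in S. viridis controls to 104, 160 and 95.7 FPKM under salt. In S. alterniflora it was at 66.41, 185.6 and 40.3 FPKM without salt and at 96.81, 92.67 and 103.1 FPKM with it. The control difference was -4.54 ± 0.54 (adjusted p = 0.000324) and that under salt 0.26 ± 0.32 (adjusted p = 0.498). Sevir.7G239700 went the same way, from 0.62, 0.46 and 0.35 FPKM to 28.56, 21.58 and 25.28 FPKM in S. viridis, beside 13.88 to 35.56 FPKM over all 6 cordgrass libraries. Its control difference was -4.09 ± 0.19 (adjusted p = 5.68e-06).

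In the other direction Sevir.3G135800 was at 35.31, 37.25 and 36.44 FPKM in S. viridis controls and at 1.99, 1.92 and 4.75 FPKM under salt, where S. alterniflora was at 2.09, 3.94 and 2.58 FPKM. Its control difference of 3.16 ± 0.39 (adjusted p = 0.000396) gave way to -0.04 ± 0.37 under salt. Sevir.2G201700 was at 21.37, 23.84 and 19.77 FPKM in S. viridis controls and at 6.65, 6.39 and 7.12 FPKM under salt, beside 7.4, 4.46 and 5.04 FPKM in S. alterniflora under salt. The cordgrass controls of this gene were scattered, at 1.52, 0.31 and 9.59 FPKM. Its change with salt (-2.55 ± 0.79, adjusted p = 0.0353) did not pass in 11 of the alternative fits, with adjusted p-values up to 0.0775. Of 23 alternative settings, Sevir.2G201700 left the closed set in 14, Sevir.3G135800 in 11, Sevir.5G469100 in 10 and Sevir.7G239700 in 9. For Sevir.3G135800 and Sevir.7G239700 these included the loss of any single salt library, and for Sevir.5G469100 the loss of any but S. viridis salt library B.

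Differences that turned, called at 2-fold or more in opposite directions with and without salt, numbered 164 (1.32%). Of these 107 were lower in S. viridis without salt and higher under it, and 57 the reverse. In the 107 the S. viridis medians were 1.4, 1 and 1.43 FPKM in controls and 83.4, 79.1 and 44.7 FPKM under salt, on either side of the cordgrass libraries at 7.71 to 12.8 FPKM. In the 57 they were 51.4, 51.8 and 53.6 FPKM in controls and 3.26, 4.53 and 11.2 FPKM under salt. The cordgrass medians were 14.6, 16.5 and 13.9 FPKM in controls and 29.2, 31.8 and 26.5 FPKM under salt. The medians of both species thus stood at other levels under salt. S. viridis moved further for 45 of the 57 (78.9%), beside 67.8% of all tested genes. The salt change within S. alterniflora was not tested. Of the 164, 100 met every criterion under both scalings, the smaller pseudocount and the 12-library fit, and the set held 111 to 235 genes when single libraries were left out.

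Sevir.3G084000 was at 9.16, 3.49 and 4.76 FPKM in S. viridis controls, below the 26.26, 16.79 and 13.46 FPKM of the cordgrass controls. Under salt it was at 692, 320 and 555 FPKM against 2.58, 10.59 and 6.91 FPKM, so that a difference of -1.58 ± 0.37 (adjusted p = 0.00756) became one of 6.17 ± 0.5 (adjusted p = 4.47e-05). Sevir.9G021500 turned from -1.47 ± 0.22 to 5.41 ± 0.63 (adjusted p = 0.000234), with S. viridis at 0.06, 0 and 0 FPKM in controls and at 280, 230 and 249 FPKM under salt. S. alterniflora was at 1.34, 2.89 and 1.47 FPKM and at 2.09, 16.95 and 2.81 FPKM. In both genes every S. viridis salt library lay above every other library of the series.

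Sevir.2G294100 turned the other way, from 1.48 ± 0.39 without salt (adjusted p = 0.0125) to -5.42 ± 0.51 with it (adjusted p = 8.42e-05). The S. viridis controls held 363, 455 and 326 FPKM and its salt libraries 0.27, 0.84 and 0.42 FPKM, while the S. alterniflora controls held 237, 127 and 80.6 FPKM and its salt libraries 137, 54.2 and 33.1 FPKM. In Sevir.4G111600 the cordgrass moved further than S. viridis, unlike the other 3 named genes that turned. Its S. alterniflora controls were at 0.62, 20.54 and 1.7 FPKM and its salt libraries at 475, 2334 and 1864 FPKM, whereas S. viridis was at 105, 110 and 118 FPKM and at 63.94, 44.87 and 134 FPKM. The difference went from 4.62 ± 0.9 (adjusted p = 0.00334) to -4.11 ± 0.68 (adjusted p = 0.00126).

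**Figure D5:**
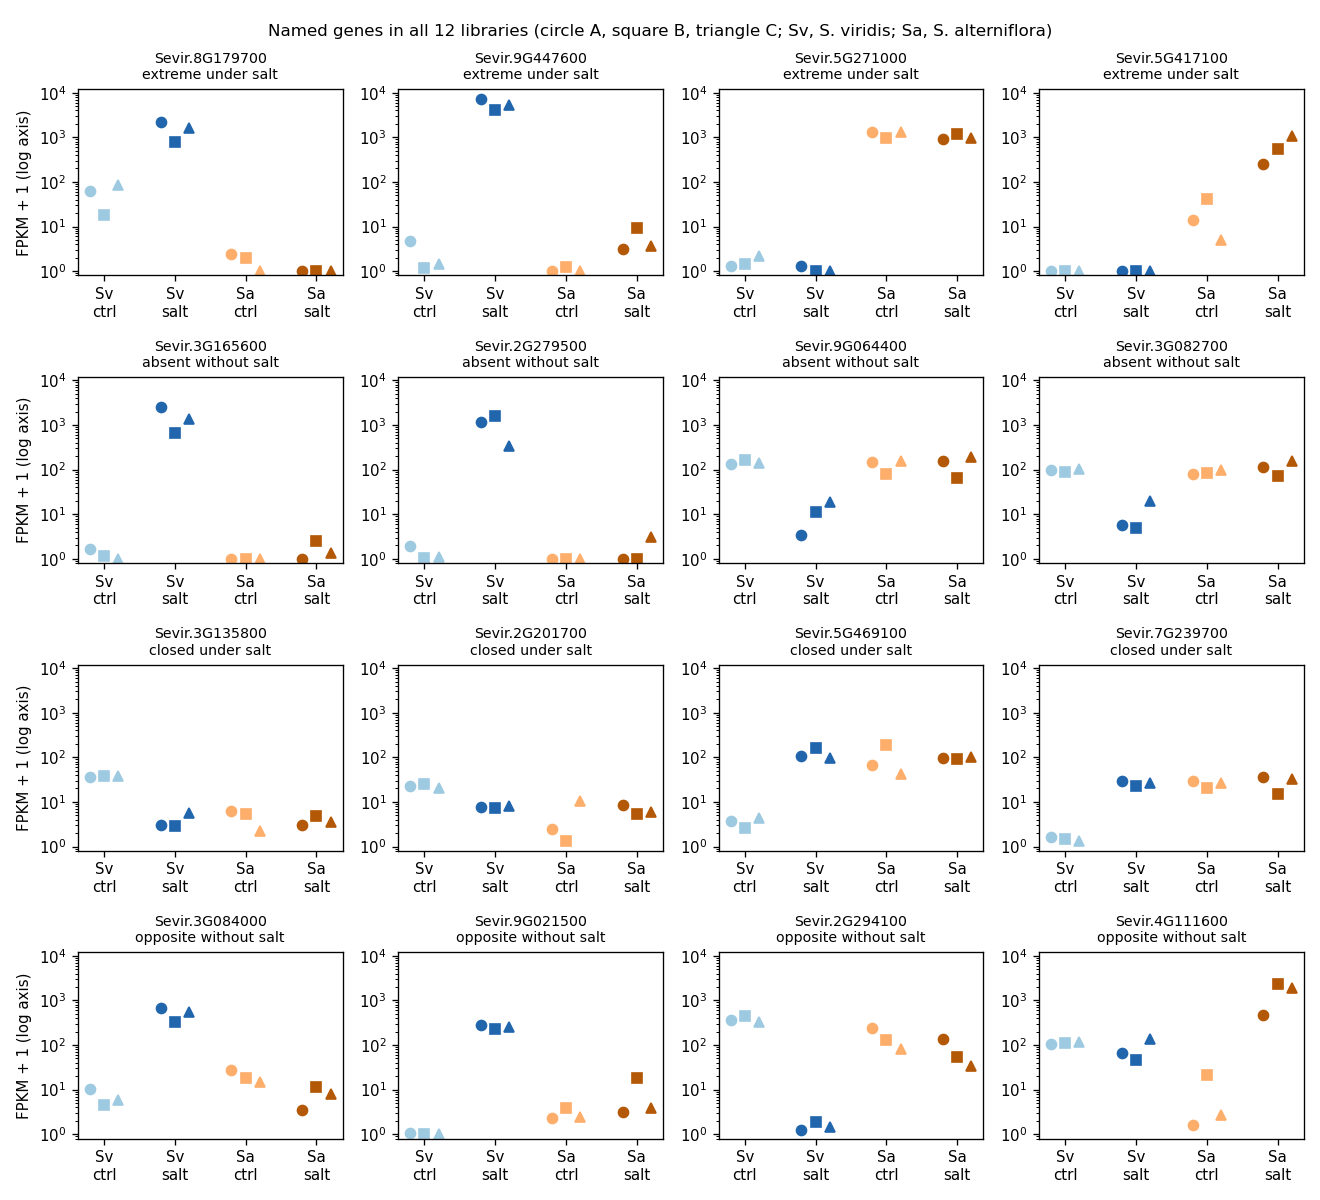
The 16 named genes in all 12 libraries, as FPKM + 1 on a log axis, with points for libraries A (circle), B (square) and C (triangle) of each group. In the row of genes closed under salt the 2 salt groups overlap, whereas in the other rows they lie apart, as the rule for naming them required.

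Across the sets of differences that changed with salt, the grass whose level moved further was usually S. viridis. It moved further for 481 of the 551 absent without salt (87.3%), 70 of the 78 closed (89.7%) and 151 of the 164 turned (92.1%), and for 67.8% of all tested genes. Since the sets were chosen on these levels, the shares describe them and carry no test. Of the 70 exceptions among the 551, 36 were the genes low in both controls and lower in S. viridis under salt, 29 were among the 253 expressed genes lower under salt and 5 among the 151 higher ones.

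Calls were also grouped by the IDs, with no test. Grouped by the number before the letter G in the ID, the called share was 59.9% to 64.2% in all 9 groups, beside 61.8% overall. The share of calls that were higher in S. viridis ran from 44.7% for number 8 and 45.7% for number 7 to 56.1% for number 3, beside 51.6% of all calls, and the median differences of these were -0.25, -0.2 and 0.11 (log2). The share absent without salt was 3.81% to 4.76%, beside 4.43% overall. Of genes called higher, the next ID in the table was called higher too in 33.8% of cases, near the 31.9% of all genes, and for lower calls the figure was 30.9%, near 29.9%.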

How the data were processed

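The authors deposited 1 table of FPKM values for 12 libraries, per the file headers. Per the submitters' processing notes the tools included RSEM and edgeR, whose roles and versions are not stated. Aligner, reference, build and filters: not given in the sources used here. Genes sharing reads with near-identical copies are therefore uncertain. Column names give group and letter, not the labels' replicate number, and columns were assigned to groups.

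Values were analysed as log2(FPKM + 1) in limma 3.58.1 (R 4.3.3; eBayes with trend, two-sided, Benjamini-Hochberg over the 12445 genes, threshold 0.05). The salt and control comparisons each used their own 6 libraries, and the change with salt all 12. Intervals are 95%. Named genes were the 2 highest and 2 lowest differences of each set among genes whose groups do not overlap (for closed differences, in the controls). Figures used Python 3.11.15, pandas 2.3.3 and matplotlib 3.10.9. Members, tests and sets were chosen with earlier results of these data known. The 8- and 64-fold counts, top-gene overlaps, neighbouring IDs and the split of low from expressed genes were chosen after seeing these values. Alternatives were another pseudocount, filters, scalings, limma without trend, 1 fit over 12 libraries, a replicate block, a tighter interval and each library left out.

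Low values were examined for steps of single reads. Ratios of low values between salt libraries piled up at 1 ratio in each S. alterniflora pair (3.37 to 12.15 times neighbouring ratios, at 0.959 to 1) and less so in S. viridis (1.77 to 2.47 times), which compares libraries but does not give a depth. Each fit was tested on simulated data with 200 changed genes. The salt fit recovered 1% of 2-fold and 34% of 4-fold changes among 12445 genes, with 4 false calls, the control fit 27% and 71% with 9, and the change 0% and 32% with 4. With more genes changed the adjusted threshold is looser, so these shares do not give the recovery of the real fits.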

Additional observations from a re-analysis of the deposited data

Results flagged for a closer look

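The species difference changed with salt for 2966 genes in limma, by a test of the change itself. Among named genes the change of S. viridis minus S. alterniflora (log2) was upward by 9.46 for Sevir.3G165600, 9.24 for Sevir.9G447600, 8.83 for Sevir.2G279500, 7.75 for Sevir.3G084000, 6.88 for Sevir.9G021500, 5.7 for Sevir.8G179700, 4.8 for Sevir.5G469100 and 4.09 for Sevir.7G239700. It was -8.73 for Sevir.4G111600, -6.9 for Sevir.2G294100, -5.18 for Sevir.5G417100, -4.08 for Sevir.9G064400, -3.9 for Sevir.3G082700, -3.2 for Sevir.3G135800 and -2.55 for Sevir.2G201700. These sizes depend on the pseudocount where a group is near 0. With 0.1 in place of 1 the change was 9.74 for Sevir.9G021500, -8.28 for Sevir.2G294100, 7.43 for Sevir.8G179700, 7.99 for Sevir.9G447600, 9.94 for Sevir.2G279500 and 5.42 for Sevir.7G239700, all in the same direction. With 3 libraries in each group, none was tested as an outlier.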

How the results depend on the processing

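Counts under salt that moved by over 1.5 times were as follows, and for those the cause was not tested unless fewer genes were tested. With a pseudocount of 0.1, 1672 genes were lower by 8-fold or more, 263 differences were absent without salt (88 higher, 175 lower), 45 were closed and 377 genes were within 2-fold. With no filter, 132 were closed and 1924 within 2-fold. A filter at a mean of 5 FPKM left 2384 lower calls. A filter at 1 FPKM in each species left 4566 calls (2420 higher, 2146 lower), 724 and 341 by 8-fold or more, and 173 higher ones absent without salt. In 1 fit over all 12 libraries, 327 were absent without salt (141 higher, 186 lower), 154 closed and 1265 within 2-fold. An interval of 1.5-fold left 139 absent (70 higher, 69 lower), 0 closed and 0 within it.

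With single libraries left out, the change with salt was called for 1883 to 3790 genes. Differences absent without salt numbered 256 to 727 (136 to 301 higher, 120 to 426 lower), closed ones 21 to 90, genes within 2-fold 204 to 759, and genes listed at 0 in S. alterniflora alone 240 to 375. The last count can only stay or rise when a library is left out, since its rule sets a condition on every salt library. Turned differences stayed within 1.5 times of 164 in each fit made. Leaving out genes constant in the controls was added after seeing the data and gave 548 absent without salt.

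Between the salt groups of the 2 species, same-letter deviations correlated at -0.103, -0.0265 and 0.0599. Those of different letters correlated at -0.106 to 0.144. These values show no pairing by letter but cannot exclude one, since a shared batch need not move the same genes alike in both grasses. With the letter as a replicate block, 7485 genes were called under salt, 444 differences were absent without salt, 53 were closed and 391 genes were within 2-fold. Among values of named genes, 334 of 345 changes with salt kept their side of the threshold, and the other 11 were Sevir.2G201700 (adjusted p 0.0505 to 0.0775, limma). Set membership was less stable: the 4 genes named as closed left their set in 9 to 14 of 23 settings and the 4 named as absent without salt in 1 to 9. Depth is unknown, so no limit from counting can be given.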
